A study of Homo sapiens with 12 samples.

Results

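The mRNAs of homologous recombination and the Fanconi anaemia pathway were followed through light polysomes, heavy polysomes and total RNA of irradiated and mock-treated MCF10A cells with and without eIF4G1. The group was set by gene name as 37 genes. Of these, 33 were represented by a probe set whose annotation names only that gene, among 19775 genes represented in the series. BRCA2, RBBP8, FANCA and FANCD2 were not analysed here. Where a gene had several such probe sets, as 17 members did, the one with the highest mean over the 12 arrays was used. Tests were run on the 28 members that reached a log2 intensity of 6 in at least 4 arrays, and XRCC2, XRCC3, RAD52, GEN1 and FANCB stayed below that filter. FANCM passed in 4 arrays, while GEN1 reached the level in 3.

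Homologous recombination copies lost sequence from an intact sister duplex: the broken ends are cut back to single strands, mediator proteins help these strands to pair with the intact copy, and the joined molecules are later separated. The Fanconi anaemia pathway detects crosslinks between DNA strands, attaches ubiquitin to the FANCD2 and FANCI pair through a multi-subunit core complex, and hands the lesion to nucleases and to recombination. Both act mainly in cells that are copying DNA, and several of their genes are known in mammary epithelium as breast cancer susceptibility genes.

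The cells were of MCF10A, a mammary epithelial line usually regarded as non-tumorigenic, for which the labels name breast cancer as the origin. The groups were 4GKD cells, in which eIF4G1 (the scaffold that links the mRNA cap to ribosome recruitment) was silenced by a hairpin RNA that doxycycline switches on, and WT cells, each either irradiated with 10 Gy from a linear accelerator or mock-treated. Each of these 4 conditions gave 3 RNA preparations, namely heavy polysomes (HMW), light polysomes (LMW) and total RNA (Total), with 1 array for each. The labels assign 4 or more ribosomes to HMW and 1 to 3 to LMW in WT mock cells, and use the same pool names for the other conditions. The sources used here do not state whether WT cells carried a hairpin or received doxycycline, or how long after irradiation cells were harvested. Hairpin, drug and loss of eIF4G1 therefore cannot be told apart. No condition had a replicate, and nothing says that the arrays came from separate cultures. The p-values therefore reflect the spread among the arrays of each fit, which may be technical. These were 8 arrays where preparations were compared, and 4 for knockdown or 10 Gy within a preparation.

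EIF4G1 was lower in 4GKD cells, with a log2 difference of -2.47 ± 0.12 (SE) in Total, -3.69 ± 0.40 in HMW and -1.99 ± 0.43 in LMW. Of the basal epithelial markers on the array all 6 passed the filter, and KRT5 had a log2 intensity of 11.66 to 13.77, while no endothelial (3) or leukocyte (2) marker passed. Of the luminal and oestrogen-receptor-positive markers 3 of 6 passed (ESR1, GATA3 and ERBB2). Of the stromal fibroblast markers 2 of 6 passed (COL1A1 and PDGFRB). The WT mock LMW array stood apart, with a median Pearson correlation of 0.737 with the other 11 arrays over the kept genes, against 0.861 to 0.915 for every other array. The summed intensity of EPCAM, CDH1, KRT8 and KRT18 was 11110 and 11940 in 4GKD Total, against 6140 and 5987 in WT Total.

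**Figure D1:**
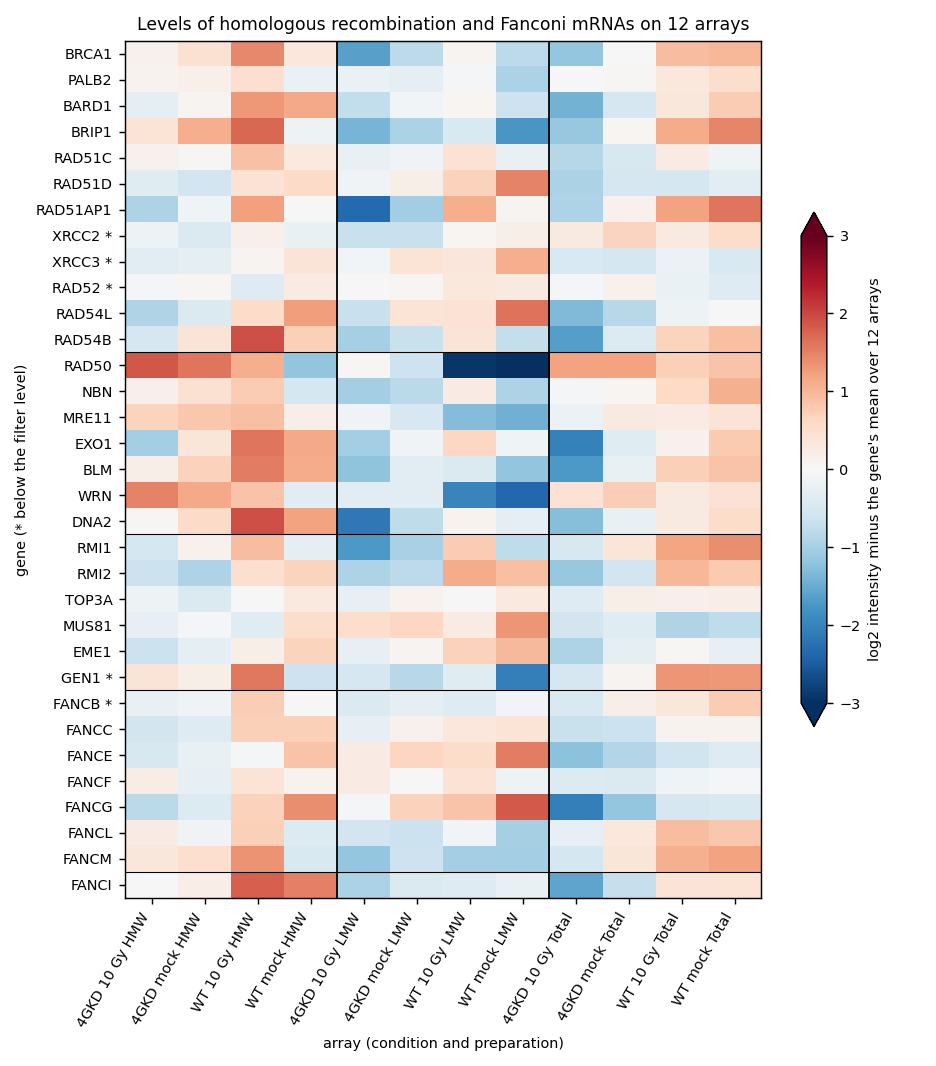
Log2 intensity of the 33 represented mRNAs (lines, grouped by role; asterisks mark the 5 below the filter) in 12 arrays (columns, by preparation), as the difference from the mean of each gene over the arrays; values beyond 3 are drawn at the end of the colour scale. The 4GKD Total columns are blue for most genes, and RAD50 in WT LMW, at 5.42 and 4.50, is the darkest cell pair.

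Silencing of eIF4G1 went with lower levels of most of these mRNAs in total RNA. Of the 28 members tested, 22 fell, 2 rose and 4 were not called (limma, adjusted p of at most 0.05), where 19.8% of the 10157 genes tested were lower and 20.7% higher. The median difference, 4GKD minus WT, was -0.92 on the log2 scale over the members and 0.03 over all genes. A smaller share of cells that make a transcript and less of it per cell cannot be told apart in these RNA pools. Of the 20 proliferation genes, such as MKI67 and TOP2A, 19 fell in the same comparison, with a median of -2.002. Their summed intensity was 5337 and 9158 in irradiated and mock 4GKD Total, against 20840 and 22720 in the matching WT arrays, and their part in the fall of the repair mRNAs was not tested.

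The mediators, which prepare the single strands for pairing, held the largest falls: 8 of 9 fell and RAD51D was not called. BRIP1, a helicase that binds BRCA1, had log2 intensities of 5.75 and 6.93 in irradiated and mock 4GKD cells, against 7.99 and 8.33 in WT cells. Both 4GKD arrays lay below both WT arrays. The difference was -1.83 ± 0.18 (SE, adjusted p = 5.34e-05), a 3.54-fold fall. RAD51AP1, which stimulates strand pairing, stood at 6.69 and 7.74 in 4GKD, against 8.81 and 9.23 in WT, and RAD54B, a DNA translocase that aids strand exchange, fell by 1.81 with a similar gap. BRCA1 had 6.32 and 7.46 in 4GKD, against 8.40 and 8.46 in WT. The groups did not overlap for BRCA1 either, and the 4GKD irradiated array was the lowest of the 4. BRCA1 fell by 1.54 ± 0.21, and its ubiquitin ligase partner BARD1 fell by 1.50 ± 0.14. RAD54L, a paralogue of RAD54B, fell by 1.00 and the mediator RAD51C by 0.74. The smallest of these falls, 0.40, was that of PALB2, the bridge between BRCA1 and BRCA2.

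End resection genes were mixed, with 4 lower, 1 higher and 2 not called of 7. BLM, a RecQ helicase, had 4.87 and 6.37 in irradiated and mock 4GKD cells, against 7.31 and 7.45 in WT cells. EXO1, an exonuclease of end resection, had 5.56 and 7.22 in 4GKD, against 7.72 and 8.37 in WT. In both genes the irradiated 4GKD array was the lowest and the WT arrays stayed above both 4GKD arrays. BLM fell by 1.76 ± 0.26, EXO1 by 1.65 ± 0.20 and the helicase-nuclease DNA2 by 1.16 ± 0.18. The members of the MRE11 complex, which senses broken ends, got different calls. RAD50, its ATPase, had 9.54 in both 4GKD arrays, against 9.05 and 9.20 in WT, and rose by 0.42 ± 0.10 (adjusted p = 0.00874). The nuclease MRE11 differed by -0.29 (adjusted p = 0.0704), and NBN, which recruits the ATM kinase, fell by 0.81 ± 0.12. For RAD50 and NBN the probe sets disagreed: the other RAD50 probe sets read 0.48 and -0.15, and the 4 other NBN probe sets read -0.21, 0.11, 0.14 and 0.23. The RecQ helicase WRN was not called at 0.22 (adjusted p = 0.137).

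Among dissolution and resolution genes 3 of 5 fell and MUS81 rose. RMI2 and RMI1, partners of BLM and TOP3A in taking joined molecules apart, fell by 1.76 ± 0.17 and 1.36 ± 0.15, while the topoisomerase TOP3A itself was not called at -0.27. MUS81, the catalytic subunit of a structure-specific nuclease, had 8.53 and 8.72 in 4GKD, against 8.17 and 8.33 in WT, and rose by 0.37 ± 0.10 (adjusted p = 0.017). Its partner EME1 had 7.24 and 7.87 in 4GKD, against 8.21 and 7.93 in WT, and fell by 0.51 (adjusted p = 0.0472). For EME1 the 4GKD mock array lay within 0.06 of the WT mock array, so most of the difference came from the irradiated pair.

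All 6 Fanconi core complex genes tested fell. FANCM, the translocase that anchors the complex to DNA, fell by 1.22 ± 0.19, FANCG by 1.11 ± 0.18, the ubiquitin ligase subunit FANCL by 0.84 ± 0.15, FANCC by 0.77 ± 0.13, FANCE by 0.55 ± 0.14 and FANCF by 0.35 ± 0.11. FANCM reached the filter in only 4 arrays, and its other probe sets read -0.27 to -0.63. Another FANCF probe set of like intensity read 0.18. FANCI, the partner of FANCD2 that receives ubiquitin, had 7.45 and 8.35 in 4GKD, against 9.44 and 9.46 in WT. The groups did not overlap, and FANCI fell by 1.54 ± 0.18.

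In 19 of the 22 members that fell, the difference was further below 0 in the irradiated pair than in the mock pair. At least 2-fold lower levels were seen in 16 of 28 members in the irradiated pair (4.94% of all genes) and in 10 of 28 in the mock pair (3.89% of all genes). The pairs are single arrays, and the residual of this fit, with 1 degree of freedom, is that same change between pairs. With all 12 arrays in a single fit, which shares the wider spread of the polysome arrays, the differences had the same size and 1 member, RMI2, was called (adjusted p = 0.0433), where 1.05% of all genes were. Leaving out any 1 Total array left 1 genotype with a single Total array, so the calls of those fits are not read as results. RMI2 read -1.37 or -2.14 there.

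**Figure D2:**
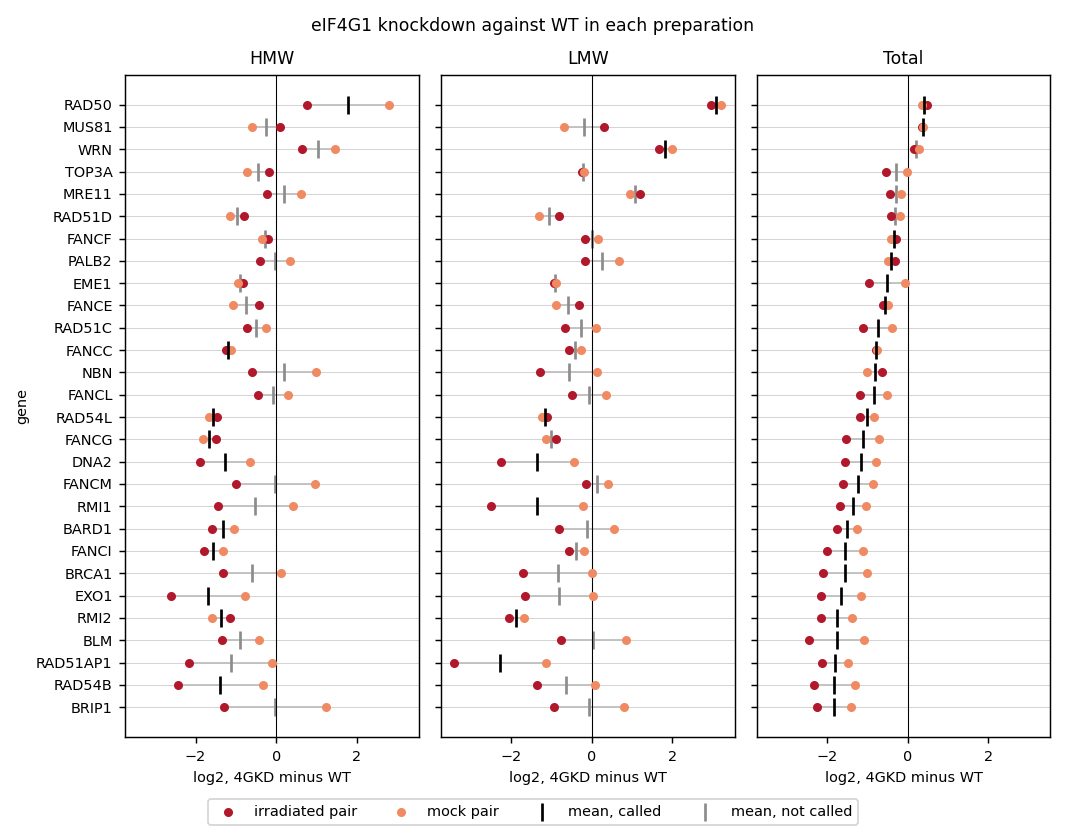
Log2 intensity in 4GKD minus WT (horizontal axis) for the 28 tested mRNAs (ordered by their difference in Total) in HMW, LMW and Total, with points for the irradiated and the mock pair and a tick for the mean, black where called by limma. Means run from -1.83 (BRIP1) to 0.42 (RAD50) in Total, and the pairs lie further apart in the polysome pools.

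Because most of the members fell together, their promoters were examined for elements of cell cycle genes. E2F factors, which drive genes of DNA replication, were represented by the motif TTCGCGC and by its variants, spelled TTGGCGC in the one case and TTCCCGC in the other, each read on both strands. RefSeq windows of 250 bases before to 50 bases after the start of transcription (GRCh38.p14) were matched for 22 of the 28 members. An E2F motif stood in 16 of 22 windows (72.7%), against 22.0% of the windows of all genes tested and 13.1% of all 27305 genes in the table. It was found in 14 of the 17 members that fell in total RNA and in 2 of the other 5. The CHR motif TTTGAA was found in 2 of 22 windows (9.09%, against 13.4% of all genes tested), and CCAAT in 11 of 22 (50.0%, against 43.8%). A match is a run of letters and does not show that a factor binds there. The stretches from 100 bases before to 30 bases after the start are shown for the 3 members with the largest falls that had a window and for the 2 that rose, 5′ to 3′ on the strand of the gene, with E2F matches in capitals.
BRIP1: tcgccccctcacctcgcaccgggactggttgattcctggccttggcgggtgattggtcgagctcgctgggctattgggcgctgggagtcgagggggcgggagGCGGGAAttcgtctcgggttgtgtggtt
RAD51AP1: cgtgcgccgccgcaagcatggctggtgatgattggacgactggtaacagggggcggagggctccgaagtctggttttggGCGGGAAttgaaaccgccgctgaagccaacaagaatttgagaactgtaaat
BLM: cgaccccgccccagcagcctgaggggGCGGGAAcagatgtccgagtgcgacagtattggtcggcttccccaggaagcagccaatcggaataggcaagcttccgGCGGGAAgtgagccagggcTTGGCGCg
RAD50: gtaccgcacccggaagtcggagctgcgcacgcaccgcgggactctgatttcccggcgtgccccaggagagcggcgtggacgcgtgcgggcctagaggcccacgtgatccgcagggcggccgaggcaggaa
MUS81: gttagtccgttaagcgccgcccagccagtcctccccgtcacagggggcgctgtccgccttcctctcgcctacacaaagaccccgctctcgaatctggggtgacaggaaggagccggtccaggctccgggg
The stretches lie at chr17:61863499-61863628 (minus strand) for BRIP1, chr12:4538790-4538919 for RAD51AP1, chr15:90717246-90717375 for BLM, chr5:132556877-132557006 for RAD50 and chr11:65860333-65860462 for MUS81, the last 4 on the plus strand. BLM holds 3 matches in this stretch, BRIP1 and RAD51AP1 hold 1 each, and RAD50 and MUS81 hold none.

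In heavy polysomes the knockdown comparison called fewer members. Of 28, 9 fell and RAD50 rose, where 4.09% of all genes were lower and 5.82% higher, and the median was -0.67, against -0.005 over all genes. EXO1 had 6.57 and 7.94 in irradiated and mock 4GKD HMW, against 9.18 and 8.71 in WT, and fell by 1.69 ± 0.42 (adjusted p = 0.00169). FANCG had 7.57 and 7.96 in 4GKD, against 9.07 and 9.78 in WT, and fell by 1.66 ± 0.42. For both genes the 4GKD arrays lay below both WT arrays. RAD54L, FANCI, RAD54B, RMI2, BARD1, DNA2 and FANCC also fell, by 1.19 to 1.57. RAD50 had 10.19 and 9.94 in 4GKD HMW, against 9.42 and 7.15 in WT. The WT mock array was the low one, so the rise of 1.78 ± 0.41 was 2.79 in the mock pair and 0.77 in the irradiated pair. BRIP1 read -1.31 in the irradiated pair and 1.24 in the mock pair, and was not called. In the irradiated pair alone, 25 of 28 members lay below 0, against 52.3% of all genes, with a median of -1.08. In the mock pair 18 of 28 did, against 52.0% of all genes, with a median of -0.39. There 8 members were at least 2-fold lower (7.77% of all genes) and 3 at least 2-fold higher (15.2%). With all 12 arrays in a single fit 5 members (17.9%) were called, all lower, where 8.14% of all genes were called. With 1 HMW array left out, 1 genotype keeps a single HMW array, so the calls of those fits are not read as results.

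In light polysomes 5 members fell and 2 rose, where 5.1% of all genes were lower and 10.3% higher. The median was -0.40, against -0.002 over all genes, and the pairs differed. In the irradiated pair 24 of 28 members lay below 0, against 50.4% of all genes, with a median of -0.79. In the mock pair 13 of 28 did, against 47.5% of all genes, with a median of 0.01. RAD51AP1 had 5.29 and 6.58 in irradiated and mock 4GKD LMW, against 8.70 and 7.70 in WT, and fell by 2.27 ± 0.41 (adjusted p = 2.01e-06). RMI2, RMI1, DNA2 and RAD54L fell by 1.17 to 1.87. RAD50 had 8.38 and 7.71 in 4GKD LMW, against 5.42 and 4.50 in WT, the widest separation of any member in this pool. It rose by 3.09 ± 0.40 (adjusted p = 5.7e-12), with 2.96 in the irradiated and 3.21 in the mock pair, so the irradiated pair, without the WT mock array, gave a similar difference. Both WT values lay below the filter level of 6, and the mock intensity of 22.62 lay below the median of all probe sets on that array, 24.36, so the size of the rise is uncertain. WRN had 7.08 and 7.06 in 4GKD, against 5.42 and 5.07 in WT, and rose by 1.83 ± 0.40, also against WT values below 6. MRE11 read 1.07 (adjusted p = 0.0514). In the fit with all 12 arrays 8 members (28.6%) were called, where 22.0% of all genes were. Calls without 1 LMW array are not read as results, since 1 genotype then keeps a single LMW array.

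The level on heavy polysomes relative to total RNA was higher in 4GKD cells for 2 members. The difference HMW minus Total rose by 1.80 ± 0.44 for BRIP1 (adjusted p = 0.00218) and by 1.20 ± 0.35 for FANCM (adjusted p = 0.0183), and none fell (3.97% of all genes were higher and 0.492% lower). For BRIP1, HMW minus Total was 1.54 and 1.05 in irradiated and mock 4GKD cells, against 0.60 and -1.60 in WT cells. The WT mock value was the lowest. The irradiated pair, which leaves out WT mock, gave 0.94 for BRIP1 and 0.60 for FANCM. FANCM was not called by limma after scaling again by quantiles (adjusted p = 0.0994) or without a variance trend (adjusted p = 0.063), while BRIP1 was called in both. With LMW in the place of Total, BRIP1 read 0.04 and FANCM -0.15, neither called. In that setting 6 members were lower in 4GKD cells (BARD1, RAD50, MRE11, EXO1, BLM and FANCI, by 0.87 to 1.31) and RAD51AP1 was higher by 1.14. These were 25.0% of the members, where 15.8% of all genes were called in either direction. The RAD50 value rests on WT LMW levels below the filter level (5.42 and 4.50), so its size is uncertain.

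Across the 4 conditions, most members gave more signal in heavy than in light polysomes. HMW exceeded LMW for 16 of 28 members and was lower for 5, where 19.6% of all genes were higher and 21.1% lower, and the median was 0.68, against -0.06 over all genes. The comparison bears on how many ribosomes an mRNA carries and is no measure of efficiency, since a longer coding region holds more ribosomes. Coding length was not used here. All 7 end resection genes tested were higher in HMW. RAD50 had 10.19, 9.94, 9.42 and 7.15 in HMW (irradiated and mock 4GKD, then irradiated and mock WT), against 8.38, 7.71, 5.42 and 4.50 in LMW of the same conditions. HMW was above LMW in every condition, by 2.67 ± 0.33 on average (adjusted p = 0.00313). WRN followed at 2.05 ± 0.22, DNA2 at 1.71 ± 0.17, BLM at 1.67 ± 0.22 and MRE11 at 1.48 ± 0.23, while NBN and EXO1 were at 0.84 and 0.68. In WT LMW, RAD50 (5.42 and 4.50) and WRN (5.42 and 5.07) lay below the filter level of 6. So did BLM in irradiated 4GKD and mock WT LMW (5.39 and 5.41) and DNA2 in irradiated 4GKD LMW (4.79). The sizes of these differences are therefore uncertain.

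Of the mediators BRIP1 (1.91 ± 0.15), BRCA1 (1.36 ± 0.15), RAD54B (1.13), BARD1 (0.90) and PALB2 (0.51) were higher in HMW. In LMW, BRIP1 lay below the filter level of 6 in irradiated 4GKD (5.47), mock 4GKD (5.93) and mock WT cells (5.13). The size of its difference is therefore uncertain. BRCA1 (5.85) and RAD54B (5.91) lay below 6 in irradiated 4GKD LMW. RAD51D, also a mediator, was lower by 0.55 ± 0.17, and RAD51C, RAD54L and RAD51AP1 were not called. The Fanconi core split: FANCM (1.38 ± 0.29) and FANCL (0.69 ± 0.13) were higher, while FANCE (-0.72 ± 0.13) and FANCG (-0.62 ± 0.18) were lower. All FANCM values in LMW lay below the filter level of 6, at 4.48 to 5.02, so the size of its difference is uncertain. The other FANCM probe sets read -0.095, 0.447 and 0.469, the first of them of similar mean intensity. HMW minus LMW of FANCE was -0.72, -0.87, -0.61 and -0.68 in irradiated 4GKD, mock 4GKD, irradiated WT and mock WT cells. Each condition had more FANCE in LMW. FANCC and FANCF were not called, and FANCI was higher by 1.37 ± 0.26. MUS81 (-0.71 ± 0.12) and EME1 (-0.40 ± 0.12) were both lower in HMW, although a second EME1 probe set read 0.21, and RMI1 was higher by 0.73. RMI1 lay at 5.36 in irradiated 4GKD LMW, also below 6. Leaving out 1 condition at a time left 14 to 19 members called (50.0% to 67.9%), where 22.5% to 45.2% of all genes were called. The count without WT mock was 14 (50.0%, against 22.5% of all genes).

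**Figure D3:**
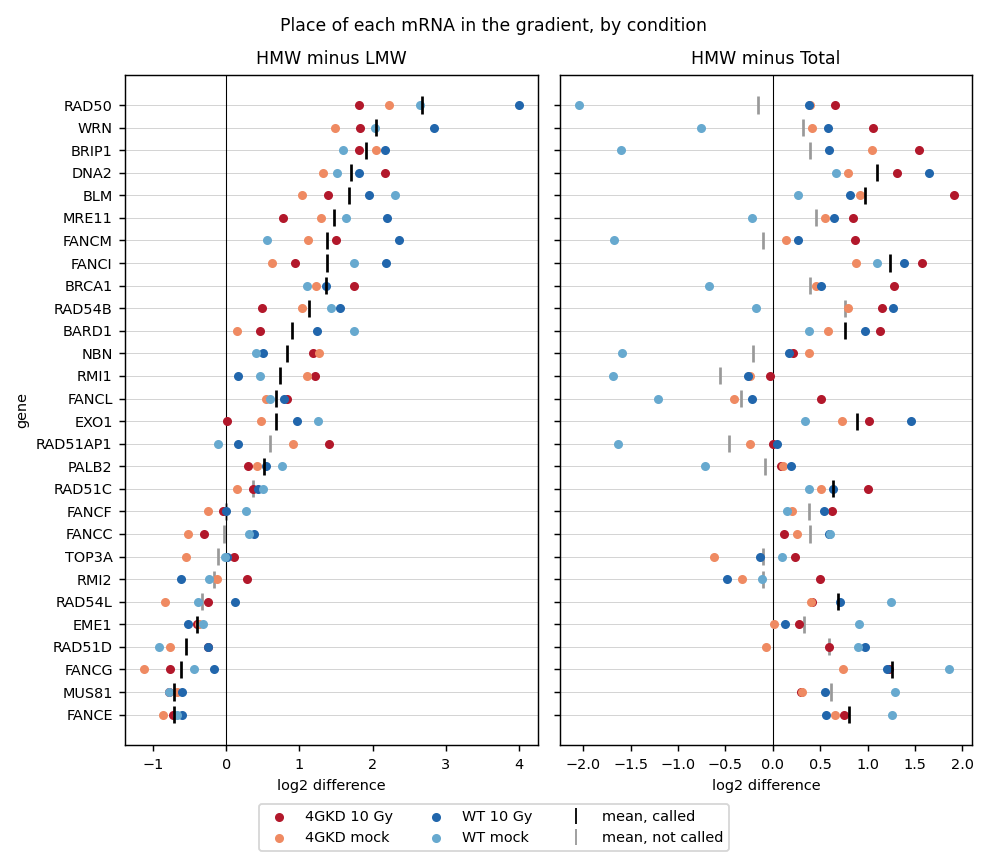
HMW minus LMW (left) and HMW minus Total (right) on the log2 scale for the 28 tested mRNAs, with a point for each of the 4 conditions and a tick for the mean, black where called by limma. The WT mock points lie far to the left in the right panel for RAD50 (-2.05), RMI1 (-1.69), FANCM (-1.67), RAD51AP1 (-1.63) and BRIP1 (-1.60).

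Relative to total RNA, 9 members were higher in HMW and none was lower, where 17.4% of all genes were higher and 18.6% lower. The median was 0.40, against 0.03 over all genes. They were FANCG (1.26 ± 0.22), FANCI (1.23 ± 0.19), DNA2 (1.10 ± 0.22), BLM (0.98), EXO1 (0.88), FANCE (0.81), BARD1 (0.76), RAD54L (0.69) and RAD51C (0.63). FANCG, with less in HMW than in LMW, had 7.57, 7.96, 9.07 and 9.78 in HMW, against 6.34, 7.22, 7.87 and 7.92 in Total of the same conditions. WT mock gave the lowest HMW minus Total of the 4 conditions for 18 of 28 members (64.3%), against 38.9% of all genes. Without the WT mock pair 17 members (60.7%) were called higher, where 44.3% of all genes were called in either direction. Without irradiated 4GKD, mock 4GKD or irradiated WT the counts were 4 (14.3%), 5 (17.9%) and 4 (14.3%), below the 24.2%, 22.5% and 16.3% of all genes called in those fits. RAD50 turned to 0.48 (adjusted p = 0.0175) without the WT mock pair.

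No member passed the test for 10 Gy in Total, HMW or LMW when both genotypes were fitted together with limma, where 0.177%, 0.473% and 0.374% of all genes passed. At an unadjusted p of at most 0.05 there were 14 members in Total, 2 in HMW and 2 in LMW. The share of all genes at that level was not set beside these counts, so they are not read as a response of the members. Scaling the arrays again by quantiles called 2 members in Total, both lower, where 0.768% of all genes were called in either direction. For HMW minus Total 1 member, FANCM, was called at 1.33 ± 0.35 (adjusted p = 0.049), where 0.276% of all genes were higher. It was 0.72 in 4GKD and 1.94 in WT cells, and was not called with another scaling, without a filter or without a trend of the variance (adjusted p of 0.0959 to 0.508). The fit without a filter called GEN1 in its place, at 1.50 ± 0.36 (adjusted p = 0.026).

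The responses of the genotypes were then read separately, as 1 array against 1 with no test. The responses of WT cells rest on the WT mock arrays, which also enter the mock pairs above. In total RNA 27 of 28 members (96.4%) were below mock in irradiated 4GKD cells, as were 59.1% of all genes. The median response of the members was -0.56 in 4GKD and -0.16 in WT cells, and that of all genes was -0.04 in 4GKD and -0.02 in WT cells. At least 2-fold lower levels were seen for 7 members in 4GKD Total (0.945% of all genes) and for none in WT Total (0.00985%). None was 2-fold higher in either (0.0197% of all genes in 4GKD and 0.0788% in WT). EXO1 was at -1.66 in 4GKD and -0.65 in WT, BLM at -1.50 and -0.15, RAD54B at -1.25 and -0.23, BRIP1 at -1.18 and -0.34, and BRCA1 at -1.15 and -0.06. RAD51AP1 and DNA2 were both at -1.05 in 4GKD, against -0.41 and -0.28 in WT. The 4GKD response lay below the WT response for 24 of 28 members (85.7%), against 56.1% of all genes. Of the 20 proliferation genes 13 were at least 2-fold lower in irradiated 4GKD Total and none in WT Total.

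In heavy polysomes of WT cells, 10 of 28 members were at least 2-fold higher after 10 Gy (15.8% of all genes) and none was 2-fold lower (2.2%). In 4GKD HMW none was 2-fold higher (0.335%) and 1, EXO1 at -1.37, was 2-fold lower (0.512%). RAD50 stood at 9.42 in irradiated and 7.15 in mock WT HMW, a response of 2.28, against 0.26 in 4GKD. BRIP1 gave 1.86 in WT and -0.69 in 4GKD, and FANCM 1.80 and -0.16. NBN, RAD51AP1, RAD54B, RMI1, WRN, BRCA1 and FANCL gave 1.11 to 1.28 in WT HMW. In total RNA of the same WT cells these 10 mRNAs lay between -0.48 and 0.12. In WT LMW, where 15.9% of all genes were at least 2-fold higher and 4.14% lower, all 10 lay above 0 and 4 of them passed 2-fold (RMI1, BRIP1, NBN and RAD54B), while RAD54L and MUS81 were 2-fold lower. In 4GKD LMW RAD51AP1, DNA2 and RAD54L were 2-fold lower (1.1% of all genes) and none was 2-fold higher (0.226%). Scaling the arrays again by quantiles changed the WT HMW split to 5 higher and 2 lower, and that in WT LMW to 2 and 2. The share of all genes after that scaling was not set beside these counts. With the median of its probe sets FANCM read 0.31 in WT HMW. The other probe sets of RAD50 read 2.71 and 2.17.

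**Figure D4:**
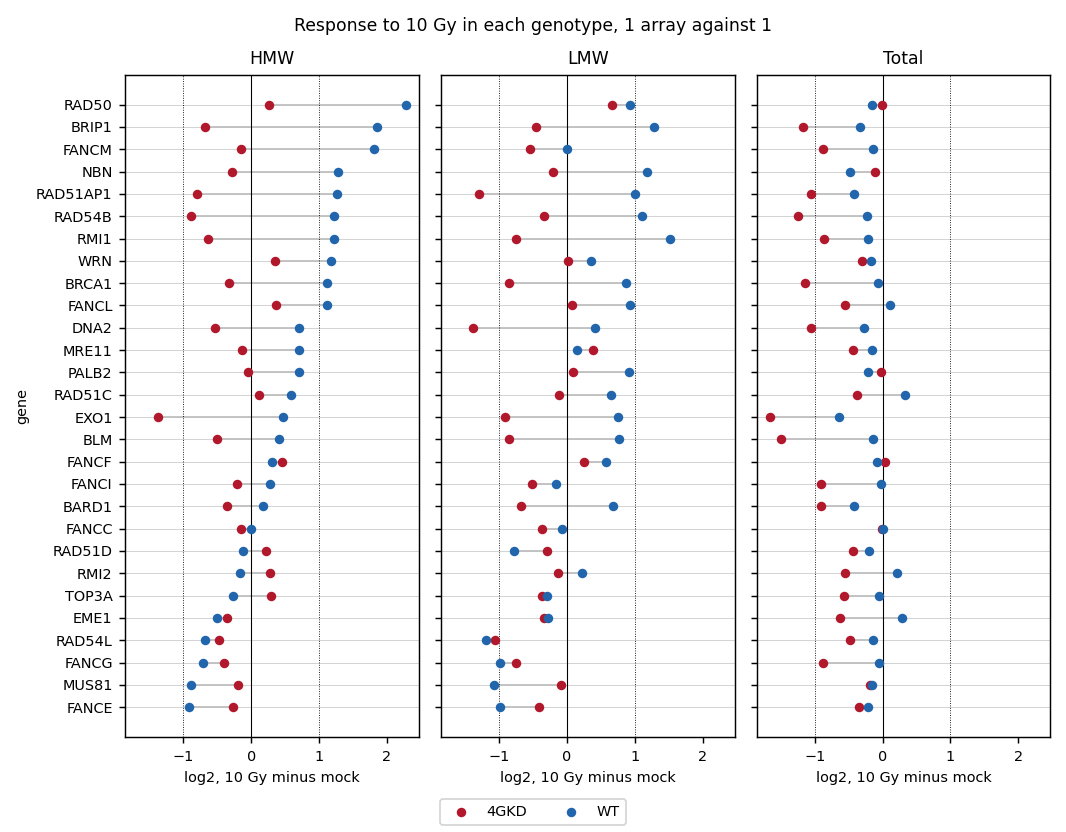
Log2 intensity after 10 Gy minus mock (horizontal axis) for the 28 tested mRNAs (ordered by the WT response in HMW) in HMW, LMW and Total, with 1 point for 4GKD and 1 for WT, each 1 array against 1; dotted lines mark 2-fold. In Total the 4GKD points reach -1.66 (EXO1), and in HMW the WT points reach 2.28 (RAD50).

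The 5 members below the filter are described by their levels. GEN1, a nuclease that resolves Holliday junctions, had 4.93 and 5.53 in irradiated and mock 4GKD Total, against 6.77 and 6.74 in WT Total. Both 4GKD arrays were lower. In WT HMW it had 7.04 after 10 Gy, against 4.82 in mock. The mediators XRCC2 and XRCC3 lay between 4.00 and 6.09, RAD52, which anneals single strands, between 5.34 and 6.04, and the core complex gene FANCB between 3.01 and 4.24.

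Other repair lists were set beside the members for the knockdown in total RNA, where 19.8% of all genes were lower and 20.7% higher. Differences between lists were not tested. Of 23 other homologous recombination genes tested, 12 (52.2%) fell and 3 (13.0%) rose, with a median of -0.53. MND1, which acts in meiotic recombination, fell by 2.57 and the AAA ATPase FIGNL1 by 1.67, while EME2 rose by 1.39 and the helicase HELQ by 0.45. Of 16 other Fanconi and crosslink repair genes, 6 (37.5%) fell and 4 (25.0%) rose, with a median of -0.03. UHRF1 fell by 1.76 and UBE2T, the ubiquitin-conjugating enzyme of the pathway, by 1.26, while the nuclease subunits ERCC1 and ERCC4 rose by 0.92 and 0.70. In the end protection and BRCA1-A list 3 of 12 fell and 3 rose (25.0% each, median -0.13), near the shares of all genes. SHLD2, a subunit of shieldin, fell by 1.27, and ABRAXAS1, the scaffold of the BRCA1-A complex, rose by 0.47. In the end joining list 5 of 13 (38.5%) fell and 1 (7.69%) rose (median -0.10). POLQ, the polymerase of microhomology-mediated joining, fell by 1.46, PARP1 by 0.92, and the ligase LIG4 rose by 0.87.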

How the data were processed

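RNA of MCF10A cells was hybridised to 12 arrays. The authors deposited linear intensities, 1 per probe set, made with RMA per the submitters' processing notes. The sources used here state neither the RMA version nor whether 1 normalisation covered all arrays. Intensities were turned to log2. The array annotation gave 41097 of 54675 probe sets a single symbol, 1801 several, and 11777 were not listed. Each gene was represented by its brightest single-symbol probe set, and the filter (log2 of 6 or more on 4 or more arrays) kept 10157 of 19775 genes. Array number limits the precision.

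limma 3.58.1 in R 4.3.3 (lmFit, eBayes with a trend on intensity) was used with Benjamini-Hochberg adjustment at 0.05 over all kept genes. HMW was compared with LMW and with Total over 8 arrays with the condition as a block. Knockdown and 10 Gy were fitted additively on the 4 arrays of each preparation and on HMW minus Total, with 1 residual degree of freedom. Responses to 10 Gy within a genotype have no test, and 2-fold changes were counted. The planned comparison with coding length was not made. Scripts were tested on simulated data. Every member could be named, with EIF4G1 and up to 4 genes per other list and comparison, the 2 highest and the 2 lowest that pass. The members and the lists were chosen with earlier results of these data known. Alternatives covered the filter, the probe set, the scaling, the variance trend, the block, the arrays in the fit and each array or condition left out.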

Additional observations from a re-analysis of the deposited data

Results flagged for a closer look

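Over the 3 preparations, 35 responses of a member to 10 Gy had opposite signs in the 2 genotypes, and in 14 of these 1 genotype was at or beyond 2-fold. Opposite signs were seen in 5 of 28 members in Total (17.9%, against 40.5% of all genes), 13 in LMW (46.4%, against 46.9%) and 17 in HMW (60.7%, against 44.1%). With 2-fold in 1 genotype as well, the counts were 0 in Total (0.197% of all genes), 6 in LMW (21.4%, against 8.95%) and 8 in HMW (28.6%, against 5.93%). Each is 1 array against 1, all the WT values rest on the WT mock arrays, of which the LMW one stood apart, and the differences between genotypes were not tested. In HMW the log2 response was -0.32 in 4GKD and 1.12 in WT for BRCA1, -0.69 and 1.86 for BRIP1, -0.80 and 1.26 for RAD51AP1, and -0.89 and 1.22 for RAD54B. In the same pool it was -0.29 in 4GKD and 1.28 in WT for NBN, -0.64 and 1.22 for RMI1, -0.16 and 1.80 for FANCM, and -1.37 and 0.47 for EXO1. In LMW it was -0.46 in 4GKD and 1.28 in WT for BRIP1, -1.29 and 1.00 for RAD51AP1, and -0.34 and 1.10 for RAD54B. NBN gave -0.21 in 4GKD and 1.19 in WT in LMW, RMI1 -0.75 and 1.52, and DNA2 -1.39 and 0.41.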

How the results depend on the processing

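Counts of members called stayed within 1.5 times for most alternatives, and the exceptions follow. The cause was not tested. Without the condition as a replicate block, 0 members were called for HMW against LMW, where 0.541% of all genes were called. The same setting called 0 members for HMW against Total, where 27.2% of all genes were called. The samples are paired by condition, each a single array. Leaving out conditions gave 14 to 19 calls for HMW against LMW and 4 to 17 for HMW against Total. In the fit over all 12 arrays the knockdown called 1 member in Total and 5 in HMW. With an array left out it called 0 in Total, 0 to 2 in HMW and 3 to 6 in LMW, and 10 Gy called 0 throughout. The fits with an array left out keep a single array of that preparation in 1 genotype. Their counts are listed for completeness, and no conclusion about the members is drawn from them. For the settings below, shares of all genes called in the same fit follow in brackets. With the filter at 7 there were 4 calls for the knockdown in LMW (13.9%) and 1 for 10 Gy in Total (0.562%). In HMW minus Total that filter gave 1 for the knockdown (4.4%) and 0 for 10 Gy (0.0489%). Without a filter, 10 Gy in Total had 1 (0.197%). Scaling again by quantiles gave 2 for 10 Gy in Total (0.768%). In HMW minus Total it gave 1 for the knockdown (3.77%) and 0 for 10 Gy (0.0197%). There the median of probe sets gave 1 for the knockdown (2.95%) and 0 for 10 Gy (0.0891%). Leaving out probe sets whose suffix marks shared sequence gave 1 (3.81%) and 0 (0.276%) there. Without a variance trend 10 Gy gave 0 there (0.256%). HMW minus LMW gave 7 for the knockdown (15.8%) and 0 for 10 Gy (0.0%). At 1.5-fold the members counted were 13 in 4GKD and 1 in WT for Total, 10 and 18 for LMW, and 5 and 18 for HMW. Over single members, 2438 values kept their side of the threshold or fold, 276 lost the call, 25 gained one, 12 crossed 2-fold and 9 reversed. Values called in neither fit are among the 2438, and the tally includes the fits with an array left out. It is therefore no measure of how stable the calls are. EME1 in HMW against LMW read 0.21 and RAD50 in Total -0.15 without probe sets of shared sequence. RAD50 in Total read -0.02 with the median of probe sets, and -0.43 to 0.48 in HMW against Total with 1 condition left out, 0.48 being without WT mock. With LMW in the place of Total the knockdown values of BARD1 (-1.19), RAD50 (-1.31), MRE11 (-0.88), BLM (-0.92) and FANCM (-0.15) reversed. Signal limits XRCC2, XRCC3, RAD52, GEN1 and FANCB, which lay mostly below the filter.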

Other observations

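The place of other repair lists on polysomes was counted beside 19.6% of all genes higher in HMW than in LMW and 21.1% lower, and differences between lists were not tested. Of 13 end joining genes 6 (46.2%) were higher and 3 (23.1%) lower, with PRKDC, the DNA-dependent protein kinase, at 3.09 ± 0.29 (SE, log2) and XRCC5, which encodes Ku80, at 1.21. Of 12 end protection and BRCA1-A genes 4 (33.3%) were higher and 1 (8.33%) lower, with RIF1 at 2.49 and MDC1 at 1.93, both known to act at broken ends. The other Fanconi and crosslink repair list had 5 higher and 5 lower of 16 (31.2% each), and the other homologous recombination list had 6 (26.1%) higher and 2 (8.7%) lower of 23. In LMW the knockdown went with higher PRKDC (1.96 ± 0.45) and XRCC5 (1.75 ± 0.36), and with lower MND1 (-2.80 ± 0.40) and SHLD2 (-2.29 ± 0.45). For the proliferation list 5 of 20 (25.0%) were higher and 1 (5.0%) lower in HMW than in LMW. In HMW against Total 14 (70.0%) were higher, where 17.4% of all genes were, with MCM2 at 2.04 and MCM5 at 1.94.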
